A study of Mus musculus with 12 samples.

Results

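Voltage-gated sodium and calcium channels, with the sodium leak channel Nalcn, were examined in the mouse striatum. The members were all genes of the count table named as sodium channel alpha or beta subunits (Scn), calcium channel pore subunits (Cacna1), alpha2delta subunits (Cacna2d) or beta subunits (Cacnb), plus Nalcn, and 31 of the 57132 features listed are reported as members. A member was taken as unmeasured when it stayed under 0.5 CPM (counts per 1000000 reads, here of all reads) in 10 or more libraries. By this limit 26 members were measured, and all 26 were among the 13902 features tested. The RNA came from striatum of C57Bl/6 mice at 10 months of age, 6 TAAR5-KO mice, which lack the trace amine-associated receptor TAAR5, and 6 littermate WT mice. Both groups held males and females per the study's methods, and no treatment is given for either. The libraries are named NK1 to NK6 (labelled TAAR5-KO) and NK7 to NK12 (labelled WT), as in the deposited table, which does not tie these numbers to animals or sexes.

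The pore of a voltage-gated sodium channel is a single large alpha subunit that opens on depolarization and carries the rising phase of the action potential, while the beta subunits tune its gating and its place on the membrane. Calcium channel pores let calcium in on depolarization and couple firing to transmitter release, to gene expression and to dendritic signaling. The alpha2delta and cytoplasmic beta subunits bring these pores to the membrane and shape their currents. Nalcn passes a small background sodium current that sets resting excitability. Striatal spiny projection neurons, the main cells of this tissue, rest at a very negative potential and fire when cortical and thalamic input depolarizes them.

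Each library held between 11269915 and 34824450 counts. Ribosomal RNA took 64.3% to 88.1% of them in spite of a depletion step, which left 1819907 to 6399188 other counts, of which 3743 to 23795 were on the members. Levels are CPM on library sizes scaled by TMM, the trimmed mean scaling of edgeR, and a count of 0 allows up to 3 counts, or 0.0678 to 0.361 CPM by library, counting error only. This scaling decided the direction of the genotype differences. Without it the median of all features moved to -0.49 on the log2 scale and all 26 members lay lower in the libraries labelled TAAR5-KO, none of them called, with 0 features called higher and 7 lower in the whole table, so every difference given is relative to the bulk of the features. Taar5 itself was not lower in the libraries labelled TAAR5-KO, with 1 to 6 reads in each and 0 to 2 in each labelled WT (two-sided exact permutation test on the counts, p = 0.0195). The sources used here do not say what Taar5 sequence the knockout allele leaves, so these few reads cannot check the labels. Groups are named by label throughout.

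Several sodium channel alpha genes lie side by side on chromosome 2 and are near-identical in places, which bears on how well 100-base single-end reads separate them. Over the whole exon sequence, 100-base words shared with another member made up 3.15% of Scn3a, 1.84% of Scn9a, 1.34% of Scn2a and 1.20% of Scn1a. The other members shared no such word. The counts of these 4 genes are uncertain to that extent.

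The levels per length of the 26 measured members ran from 6.71 CPM per kb of exon for Scn2b to 0.0447 for Cacna2d4. The upper end was held by sodium channel subunits: Scn2b, Scn2a (6.06 CPM per kb) and Scn4b (5.93), followed by the calcium channel beta subunit Cacnb4 (4.84). The order was loose. Of the 25 pairs of neighbours in it, 4 kept their order in all 12 libraries (Cacnb4 over Cacnb3, Scn3a over Cacna1c, Cacna1g over Scn7a and Scn9a over Cacna2d4), and in 17 the mean log2 ratio was smaller than its SD over libraries. In particular neither Scn2b and Scn2a nor Scn2a and Scn4b differed beyond that spread.

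**Figure D1:**
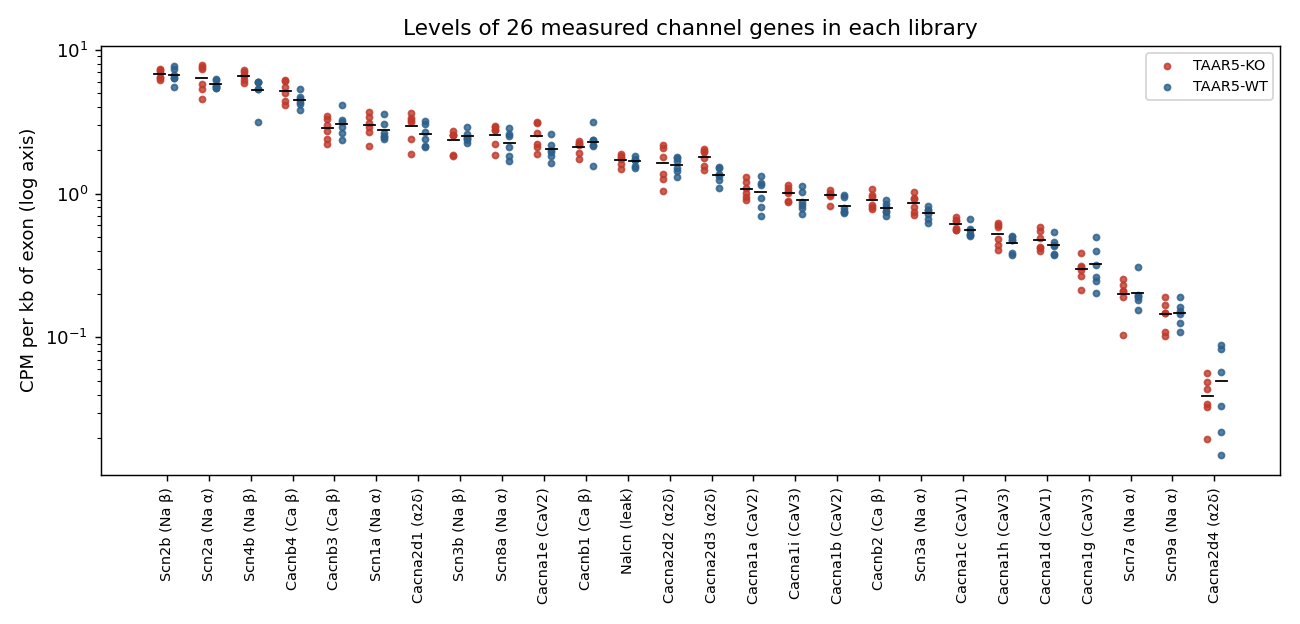
Levels of the 26 measured members in CPM per kb of exon (log axis), ordered by their mean, with a point for each library labelled TAAR5-KO (red) or WT (blue) and a bar for the group mean. Levels fall from 6.71 CPM per kb for Scn2b to 0.0447 for Cacna2d4, and the groups overlap for every member.

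The 5 unmeasured members are channels known mainly from other tissues. Cacna1s, the skeletal muscle calcium channel, had 0 to 8 reads per library, and Scn4a, the skeletal muscle sodium channel, had 0 to 3. Scn10a and Scn11a, sodium channels of peripheral sensory neurons, had 0 to 7 and 0 to 4 reads. Cacna1f, a calcium channel of the retina, had 0 to 11. Exons of Cacna1s overlap a feature on the opposite strand over 19.98% of their length. The highest value among them was 1.32 CPM, for Cacna1f in NK10.

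A single member, the alpha2delta subunit gene Cacna2d3, differed between the genotypes at an adjusted p under 0.1 (edgeR likelihood ratio test, Benjamini-Hochberg over all 13902 features). Among all features 1.65% passed, 0.957% higher and 0.691% lower in the libraries labelled TAAR5-KO, so 1 of 26 members is a share near that of the table as a whole. The quasi-likelihood test called the same 1 member against 0.453% of features. At an unadjusted p under 0.05 there were 4 members, 15.4% of the 26, against 11.9% of features. No member had groups that did not overlap, against 1.01% of features. By the sign of the fitted log2 fold change, 20 members were higher and 6 lower, with a median of 0.13, beside -0.0059 over all features tested. Scn9a counts as higher by this sign, though its mean CPM was lower in the libraries labelled TAAR5-KO.

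**Figure D2:**
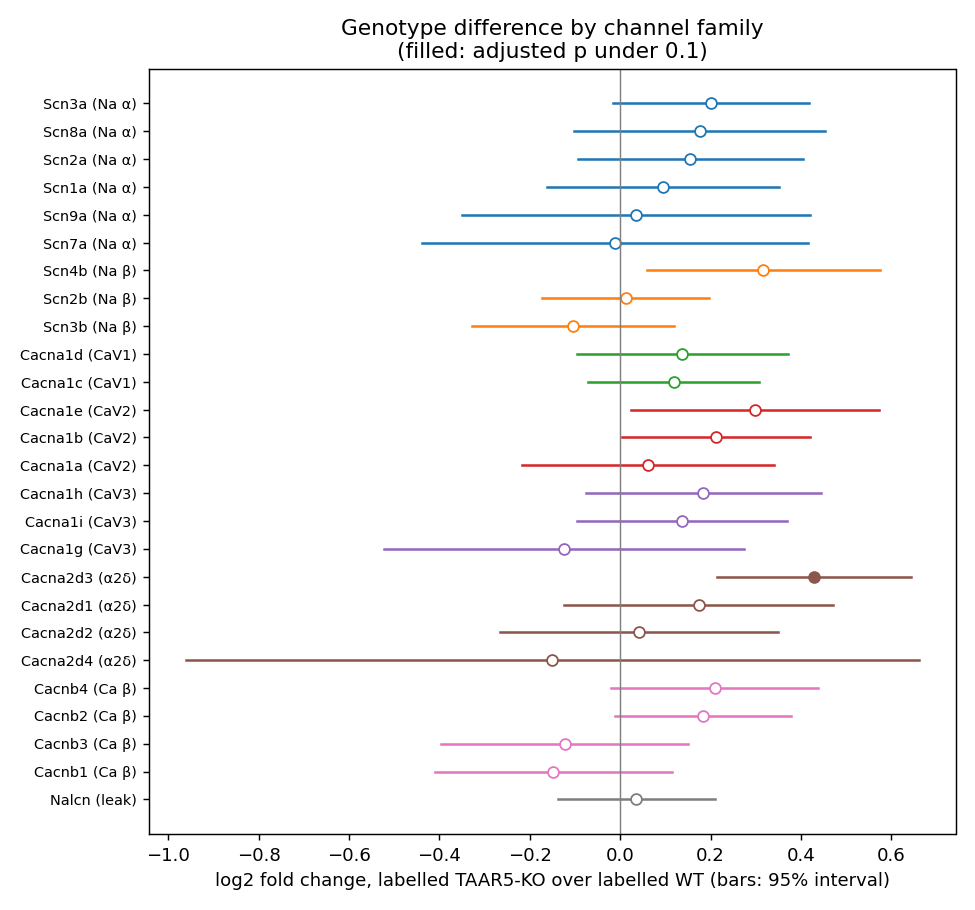
Log2 fold change of each measured member, labelled TAAR5-KO over labelled WT, with its 95% interval, grouped and colored by family; the filled circle has an adjusted p under 0.1. Cacna2d3 (0.43) is the filled one, and 20 of the 26 lie right of 0.

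Cacna2d3 encodes an alpha2delta subunit and lies on chromosome 14 from 28626900 to 29443821 on the minus strand. Its level was 17.9, 17.3, 15.5, 16.97, 12.8 and 13.6 CPM in NK1 to NK6 and 11.9, 10.9, 13.3, 13.1, 9.51 and 11.5 CPM in NK7 to NK12. All libraries labelled TAAR5-KO but NK5 exceeded every library labelled WT. Group means of 15.7 ± 2.09 and 11.7 ± 1.44 CPM (SD, 6 libraries in each) corresponded to a log2 fold change of 0.43, standard error 0.11 (edgeR adjusted p = 0.0204, quasi-likelihood 0.0954). The call was lost without NK11, at 0.37 (adjusted p = 0.120), while the other single omissions kept it. Adding the summed level of 10 spiny neuron markers to the model lowered the difference to 0.30 (adjusted p = 0.498). All 10 of those markers were higher in the libraries labelled TAAR5-KO but none was called, and their summed level was 106 to 133 CPM per kb there and 64.0 to 115 in those labelled WT (exact permutation p = 0.0238), lowest in NK11. Penk, Pde10a and Adcy5 among them are in lists the study chose on these samples, so this level and its p are not independent evidence. Penk alone had means of 52.4 CPM per kb in the libraries labelled TAAR5-KO and 44.3 in those labelled WT. The part of the markers in the result was not tested further. In bulk tissue, fewer cells of a type and less RNA per cell cannot be told apart.

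Within the span of Cacna2d3, on the opposite strand and with no exon in common, lies Lrtm1 (chromosome 14, 28740165 to 28755602), singled out after its values were seen. Lrtm1 was at 1.51 ± 0.577 CPM against 0.809 ± 0.361 (SD, 6 libraries in each), which is 0.99 on the log2 scale with a standard error of 0.30 (edgeR adjusted p = 0.0738, quasi-likelihood 0.175). Lrtm1 and Cacna2d3 differed in the same direction. The strand setting of the counting was not given, and whether reads from within Cacna2d3 were counted as Lrtm1 was not tested. The 2 genes may therefore not be separate measurements. The study, on these same samples, also lists Lrtm1 as upregulated in TAAR5-KO. The other alpha2delta genes did not pass. Cacna2d1, the most abundant of the family per length at 2.77 CPM per kb, ran from 23.0 to 44.6 CPM with a median of 39.5 in the libraries labelled TAAR5-KO and from 25.9 to 39.3 with a median of 31.2 in those labelled WT (log2 fold change 0.17, adjusted p = 0.702). The ranges overlapped. Cacna2d2 was at 12.9 ± 3.69 against 12.6 ± 1.59 CPM (log2 fold change 0.041) and the scarce Cacna2d4 at 0.373 ± 0.1245 against 0.474 ± 0.297 CPM (-0.15). As a share of the family's summed CPM per kb, Cacna2d3 was 28.2% ± 3.67 in the libraries labelled TAAR5-KO and 24.1% ± 3.41 in those labelled WT, and the ranges overlapped.

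**Figure D3:**
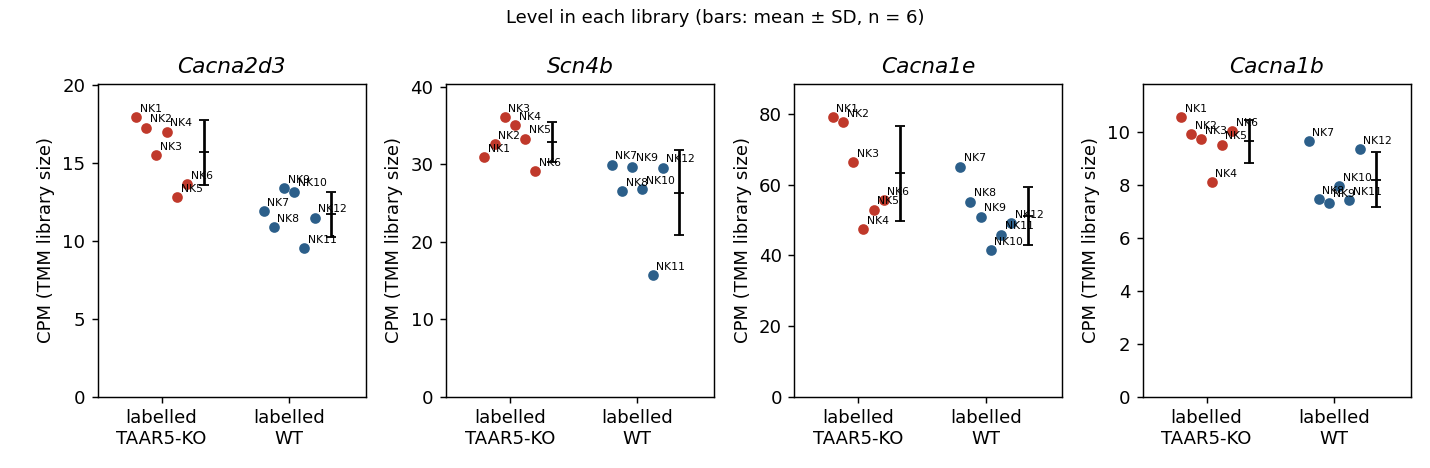
CPM of Cacna2d3, Scn4b, Cacna1e and Cacna1b in each library, with group mean and SD (n = 6), axes from 0. The groups overlap for each gene, and NK11 is the lowest library for Cacna2d3 (9.51 CPM) and Scn4b (15.6 CPM).

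Among the sodium channel beta subunits, Scn4b, which is abundant in spiny neurons and is known for supporting resurgent sodium current, came nearest to a call. It ran from 29.1 to 36.1 CPM with a median of 32.9 in the libraries labelled TAAR5-KO and from 15.6 to 29.9 with a median of 28.1 in those labelled WT. The means of 32.8 ± 2.58 and 26.3 ± 5.45 CPM (SD, n = 6 each) gave a log2 fold change of 0.32 with a standard error of 0.13 (edgeR adjusted p = 0.275). NK11 stood apart at the bottom, and without it the difference was 0.20 (adjusted p = 0.478). With the spiny marker level in the model it was 0.065 (adjusted p = 0.943). Scn2b, a covalently linked beta subunit and the member of the highest level per length, was at 28.7 to 34.1 CPM with a median of 31.4 against 25.7 to 35.6 with a median of 30.5 (log2 fold change 0.012), and the ranges overlapped. Scn3b was at 12.8 ± 2.11 against 13.7 ± 1.24 CPM (-0.10).

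The sodium channel pores were led by Scn2a, which held 48.3% ± 2.85 of the summed CPM per kb of the sodium pores reported in the libraries labelled TAAR5-KO and 48.3% ± 2.56 in those labelled WT. Scn1a followed with 22.7% ± 2.43 and 23.2% ± 2.07, and Scn8a with 19.5% ± 0.930 and 18.8% ± 2.22. The make-up of the family was thus alike within its spread, and shares do not depend on the scaling between libraries. Scn2a, a pore of unmyelinated axons and axon initial segments, ran from 58.8 to 100.1 CPM with a median of 84.5 in the libraries labelled TAAR5-KO and from 69.6 to 80.4 with a median of 72.0 in those labelled WT. The libraries labelled TAAR5-KO lay on both sides of the WT range, 3 above and 2 below it, and the log2 fold change was 0.16 with a standard error of 0.13 (adjusted p = 0.679). Scn1a, the pore most associated with fast-spiking interneurons, was at 33.2 ± 6.02 against 30.9 ± 5.02 CPM (log2 fold change 0.094). Scn8a, the pore of nodes and distal initial segments, was at 40.6 ± 6.87 against 35.7 ± 7.38 CPM (0.18). Scn3a, best known from the developing brain, ran from 8.27 to 11.8 CPM with a median of 9.96 against 7.23 to 9.51 with a median of 8.61 (log2 fold change 0.20, adjusted p = 0.475).

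The other measured sodium pores were scarce. Scn7a, a channel of glia and sensory tissue that is not gated like the others, was at 1.48 ± 0.382 against 1.4999 ± 0.391 CPM (-0.012). Scn9a, a channel of peripheral neurons, was at 1.83 ± 0.436 against 1.87 ± 0.360 CPM (0.035). This fitted value lay above 0 although the mean was lower in the libraries labelled TAAR5-KO.

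All 3 presynaptic-type CaV2 pores were higher in the libraries labelled TAAR5-KO, and none passed. Cacna1e, the R-type pore, held the largest share of their summed CPM per kb (54.6% ± 5.01 and 52.5% ± 4.72). It ran from 47.4 to 79.2 CPM with a median of 61.1 against 41.4 to 65.1 with a median of 50.02 (log2 fold change 0.30, SE 0.14, adjusted p = 0.361), and NK1 to NK3 alone exceeded the WT range. Cacna1e is in a list the study chose on these samples, so its direction is not independent evidence. Cacna1b, the N-type pore, ran from 8.11 to 10.6 CPM with a median of 9.82 against 7.33 to 9.65 with a median of 7.71 (log2 fold change 0.21, SE 0.11, adjusted p = 0.408). Cacna1a, the P/Q-type pore, was at 13.3 ± 1.97 against 12.5 ± 2.99 CPM (0.061).

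None of the L-type and T-type pores passed. Cacna1c, the main L-type pore of brain and heart, ran from 12.1 to 14.9 CPM with a median of 13.4 against 11.05 to 14.5 with a median of 11.8 (log2 fold change 0.12, adjusted p = 0.683), and Cacna1d, the L-type pore that opens at more negative potentials, was at 7.25 ± 1.17 against 6.66 ± 0.918 CPM (0.14). Cacna1i, the T-type pore of the highest level per length, ran from 8.67 to 11.3 CPM with a median of 10.1 against 7.11 to 11.2 with a median of 8.43 (0.14, adjusted p = 0.698). The ranges of both leading genes overlapped. Cacna1h was at 5.69 ± 1.02 against 4.93 ± 0.639 CPM (0.18) and Cacna1g at 3.02 ± 0.581 against 3.26 ± 1.10 CPM (-0.12).

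The cytoplasmic beta subunits were led by Cacnb4, at 36.7 to 55.0 CPM with a median of 46.8 against 34.2 to 47.6 with a median of 39.5 (log2 fold change 0.21, adjusted p = 0.477). Its share of the family's CPM per kb was 46.9% ± 2.77 against 42.4% ± 2.18, with overlapping ranges. Exons of Cacnb4 overlap a feature on the opposite strand over 16.0% of their length, and the strand setting of the counting was not given in the sources used here. Cacnb2 ran from 10.4 to 14.2 CPM with a median of 11.8 against 9.30 to 11.8 with a median of 10.3 (0.18, adjusted p = 0.464). Cacnb1 was at 9.48 ± 1.02 against 10.4 ± 2.35 CPM (-0.15) and Cacnb3 at 11.4 ± 1.94 against 12.3 ± 2.45 CPM (-0.12). Neither passed, and without NK12 they were at -0.026 and -0.014.

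The leak channel Nalcn did not separate by label. It ran from 21.8 to 27.7 CPM with a median of 25.9 against 22.2 to 27.0 with a median of 24.99 (log2 fold change 0.036, SE 0.089, 95% interval -0.14 to 0.21). Of the 4 genes of the Nalcn complex, Unc79, Unc80, Nalf1 and Nalf2, 2 were higher and 2 lower, and none passed. Unc80 is in the same list of the study as Cacna1e. Of the 4 intracellular FGF homologous factors, which bind sodium channel tails, 1 was higher and 3 lower, of 7 genes of the axon initial segment 3 were higher and 4 lower, and of the 9 tested partners of calcium channels 6 were higher and 3 lower, and none of these passed. The gamma-type genes (Cacng), most of which serve as partners of AMPA receptors, were lower in 6 of the 6 tested. Cacng7 passed, at 13.4 ± 1.13 against 17.3 ± 2.15 CPM (log2 fold change -0.38, SE 0.096, adjusted p = 0.0172, quasi-likelihood 0.0943). Their summed level was 13.7 to 15.8 CPM per kb in the libraries labelled TAAR5-KO and 14.7 to 19.2 in those labelled WT (exact permutation p = 0.0108). The summed levels of the Nalcn complex (exact permutation p = 0.136) and the FGF homologous factors (0.827) did not separate the labels. Nor did those of the axon initial segment (exact permutation p = 0.985) and the calcium channel partners (0.143).

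Base composition and exon length were compared with the members' differences. Across the 26 members the log2 fold change and the GC content of the exons had r = -0.30 and rho = -0.22, and over all 13902 features r = -0.34 and rho = -0.40. Against log2 exon length the members had r = 0.41 and rho = 0.33, and all features r = 0.058 and rho = 0.11. These are descriptions across genes that share the same 12 libraries. Of the members, 19 had more than 8000 bases of exon, and features of that length had a median of 0.043. With each library's trend on GC content removed, 17 members were higher and 9 lower with a median of 0.087, and Cacna2d3 stood at 0.40 (adjusted p = 0.0495). With the trend on length removed instead, 18 were higher and 8 lower with a median of 0.069. Cacna2d3 then stood at 0.41 (edgeR adjusted p = 0.0223). Some summed levels of other gene lists differed by label as well, by p-values not adjusted for the number of lists. Of 9 nuclear-retained RNAs, 9 had a fitted value above 0 and 6 passed. Neat1 was level, at 6.53 ± 1.85 against 6.54 ± 1.98 CPM (0.017, edgeR adjusted p = 0.986). Malat1 alone had means of 136 and 92.8 CPM per kb, where the summed level had 159 and 108. That summed level was 139 to 201 against 90.2 to 129 CPM per kb (exact permutation p = 0.00216, the smallest this design allows). Malat1, Meg3 and Snhg11 are in the same list of the study as Cacna1e, chosen on these samples, so this p is not independent evidence. Astrocyte markers were lower in 6 of 6 genes with 1 called (21.1 to 29.2 against 29.2 to 33.6 CPM per kb, exact permutation p = 0.00433). Microglia markers were lower in 5 of 5 genes with 2 called (7.26 to 10.7 against 9.57 to 12.7 CPM per kb, exact permutation p = 0.00433). Mature oligodendrocyte markers were lower in 6 of 6 genes with 0 called (89.9 to 108 against 92.2 to 122 CPM per kb, exact permutation p = 0.0346). Markers of GABA interneurons (exact permutation p = 0.926), cholinergic interneurons (0.494) and oligodendrocyte precursors (0.160) did not separate the labels. Neither did those of endothelium (exact permutation p = 0.214), ependyma (0.597) and skeletal or heart muscle (0.190). The part of these lists in the members' differences was not tested.

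A part of the channel genes varied with the level of cortical pyramidal neuron markers. The cortex was removed from each slice at dissection, yet all 8 of these markers (Slc17a7, Neurod6 and Tbr1 among them) had reads in every library. Their summed level was 14.7, 23.0, 24.6, 8.99, 10.0 and 22.2 CPM per kb in NK1 to NK6 and 17.5, 14.0, 8.77, 11.7, 23.1 and 26.2 in NK7 to NK12. It did not separate the labels (exact permutation p = 0.926), and none of the 8 genes was called. The relation of the channels to it was looked for after the values by library had been seen. In a model with genotype and this level, 11 of the 26 members (42.3%) had a slope at an adjusted p under 0.1, 9 positive and 2 negative, against 12.2% of all features. The slope was common to both labels, and none was fitted within each label.

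**Figure D4:**
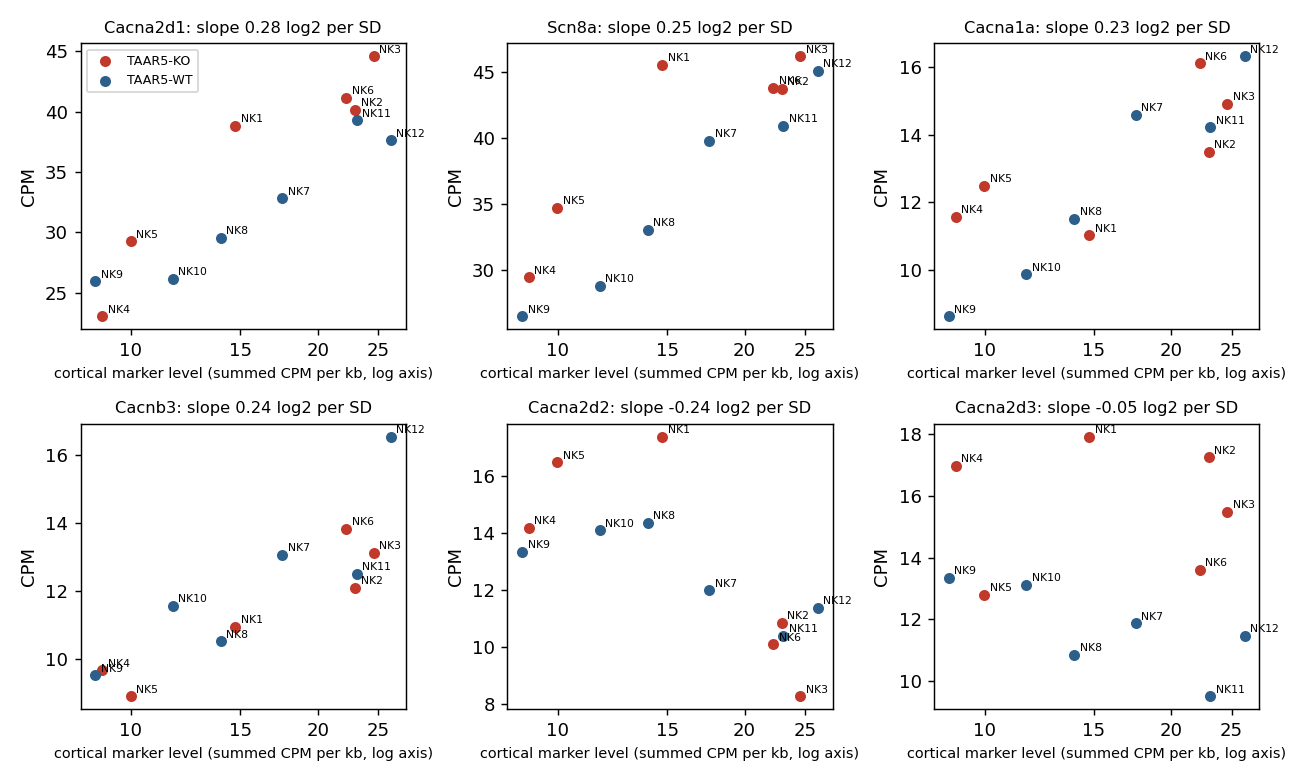
CPM of Cacna2d1, Scn8a, Cacna1a, Cacnb3, Cacna2d2 and Cacna2d3 (vertical) against the summed level of 8 cortical pyramidal neuron markers (CPM per kb, log axis), a point for each library. The first 4 are higher in libraries of high marker level in both labels, Cacna2d2 is lower, and Cacna2d3 has a slope of -0.047 that did not pass.

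The smallest adjusted p belonged to Cacna2d1, at 0.28 on the log2 scale per SD of the marker level (SE 0.042, edgeR adjusted p = 1.18e-08). In the libraries of the 2 lowest marker levels, NK9 and NK4, it was at 25.9 and 23.0 CPM, and in those of the 2 highest, NK12 and NK3, at 37.6 and 44.6 CPM. Scn8a had a slope of 0.25 (SE 0.042, adjusted p = 8.48e-07) and went from 26.5 and 29.4 CPM to 45.1 and 46.2 CPM in the same libraries. Cacna1a had a slope of 0.23 (SE 0.050, adjusted p = 0.000155), with 8.64 and 11.6 CPM at the low end and 16.3 and 14.9 CPM at the high end. Each of these genes thus lay higher at the high end whichever the label. The other positive slopes were those of Cacna1g (0.30), Cacnb3 (0.24), Scn1a (0.18), Cacnb4 (0.17), Scn2a (0.15) and Cacna1i (0.14). The negative ones were those of Cacna2d2 (-0.24, SE 0.057, adjusted p = 0.00136), which fell from 13.3 and 14.2 CPM at the low end to 11.4 and 8.27 CPM at the high end, and Scn9a (-0.23).

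Without NK12 and NK3, the libraries farthest from the median marker level in CPM per kb, 7 of the 11 were still called, Cacna2d1, Scn8a, Cacnb3, Cacna1a, Cacna1g, Cacnb4 and Cacna2d2, against 6.39% of features. Without NK9 and NK4, the farthest on the log2 scale that the model used, 5 were called, Cacna2d1, Scn8a, Cacnb3, Cacna1a and Cacna2d2, against 5.43% of features. With the GC trend removed 9 were called against 12.1% of features, and without TMM 0 were called against 0.0935%. With this covariate the genotype difference of Cacna2d3 was 0.42 (adjusted p = 0.00579). Within the alpha2delta family the slope was positive for Cacna2d1 and negative for Cacna2d2, and Cacna2d1 held from 33.3% to 56.3% of the family's CPM per kb by library. The difference between the 2 slopes was not tested.

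**Figure D5:**
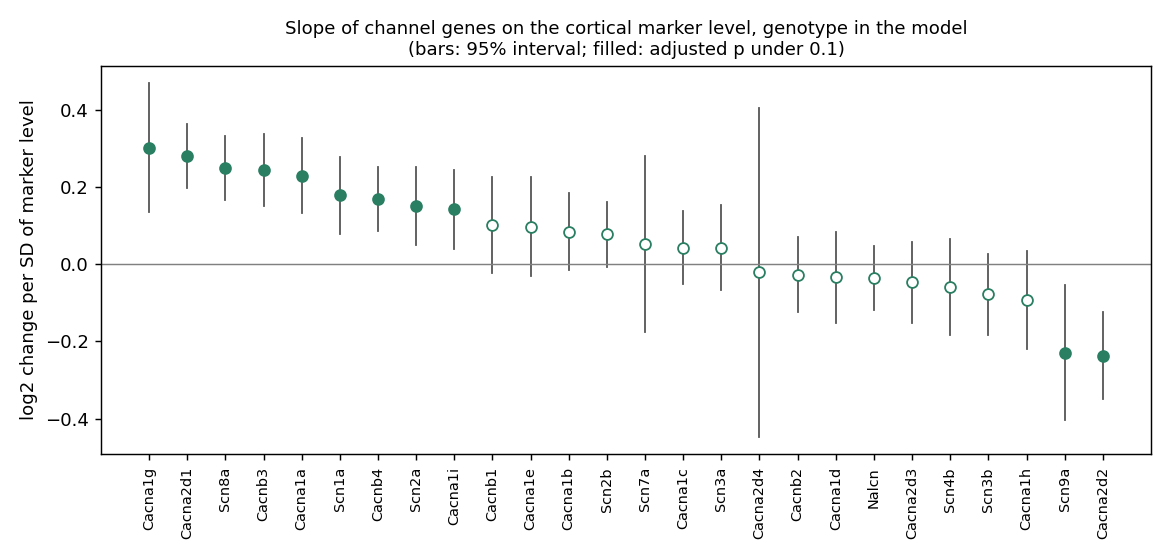
Slope of each measured member on the cortical marker level, in log2 units per SD with genotype in the model; bars are 95% intervals and filled circles have an adjusted p under 0.1. Cacna1g (0.30) is at the top, Cacna2d2 (-0.24) at the bottom, and 11 of the 26 circles are filled.

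On the spiny neuron marker level, fitted in the same way, 2 members had a slope that passed, against 0.489% of features. Scn4b was higher with it (0.27, SE 0.057, adjusted p = 0.00540) and Cacna1g lower (-0.33, SE 0.085, adjusted p = 0.0394). Without NK11 and NK4, the farthest from the median, neither passed, with slopes of 0.090 for Scn4b (adjusted p = 0.877) and -0.55 for Cacna1g (adjusted p = 0.226).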

How the data were processed

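Single-end RNA-seq of striatum from 6 TAAR5-KO and 6 WT mice was analysed. The authors depleted ribosomal RNA, made directional libraries, trimmed reads with cutadapt 4.1, mapped the reads on GRCm39 (STAR 2.7.11b) and summed them per gene (featureCounts 2.0.6), per the submitters' processing notes and the study's methods, and deposited the table of raw counts used here. A further 12 columns of libraries that belong to another knockout were not used. Gene positions and exons came from the deposited table. GC content and the share of sequence in common between members were read from GRCm39 at those exons. GENCODE M39, a later annotation release than the authors', gave only the gene types, used to mark ribosomal RNA.

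The table's columns were placed in a genotype by the names they carry. Features with at least 0.5 CPM in at least 3 libraries were kept, scaled by TMM and tested in edgeR 4.0.16 (R 4.3.3) by its likelihood ratio test for generalized linear models, and p-values were adjusted by Benjamini-Hochberg over all 13902 features, with 0.1 as the threshold. The test, the limit of 0.5 CPM, the adjustment and the threshold follow the study's methods, which name CPM but not TMM. The filter used unscaled library sizes, and on TMM-scaled sizes it would keep 13053 features, the number the study reports testing. The study reports fewer genes at this threshold than were called here. For a value with 1 number per library, all 924 ways of assigning libraries to genotypes gave an exact permutation p, two-sided. Slopes on marker levels used the same test with genotype in the model and were added after the data were seen. Figures were drawn with matplotlib 3.10.9 in Python 3.11.15.

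Members and gene lists were chosen with earlier results of these data known. The rule gave 33 members, of which 2 are not reported here; they stayed in the fits and in no count of members. All other measured members are named; values by library are given for Cacna2d3, which passed, and the lowest, median and highest for the others of the 6 smallest p, the gene of highest CPM per kb in each family and Nalcn. Replicates are separate mice per the labels. The test was also run on simulated counts, but no outcome of that run is reported and no conclusion is drawn from it. Alternatives were the quasi-likelihood test, DESeq2 1.42.0, other scalings and filters, trends on length or GC content removed by loess (span 0.5), and leaving out each library.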

Additional observations from a re-analysis of the deposited data

Results flagged for a closer look

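Dixon's test marked 3 of the 52 groups of 6 libraries examined (26 members in 2 genotypes), where chance marks about 1 in 20. Scn4b had its lowest library labelled WT, NK11, at 15.6 CPM, far from the next at 26.5 CPM. Scn7a had its highest library labelled WT, again NK11, at 2.26 CPM, with the next at 1.45 CPM. Cacna1c had its highest library labelled WT, NK7, at 14.5 CPM, with the next at 12.4 CPM.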

How the results depend on the processing

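No paired analysis was possible because the columns of the table carry no animal numbers that could be matched across genotypes. Cacna2d3 was the called member under each alternative that called any. DESeq2 gave no adjusted p for 3 members, and filterByExpr kept 25 of the 26. No member was called (0) with library size as the only scaling, with no filter or with the spiny marker level as covariate, and leaving out single libraries gave 0 to 1 called members, 0 without NK11. The count of called features, 229, was 63 with the quasi-likelihood test, 7 with library size only, 93 with no filter, 108 at an adjusted p under 0.05, 83 with the GC trend removed, 598 with the cortical covariate, 29 with the spiny covariate, and 85 to 414 when single libraries were left out. The slope on the cortical marker level passed for 11 members, for 0 with library size only (0.0935% of features), for 7 without NK12 and NK3, for 5 without NK9 and NK4, and for 8 to 11 when single libraries were left out.

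With library size only, all 20 members that were higher changed direction, to -0.38 for Cacna1e, -0.32 for Cacnb2, -0.34 for Cacna1b, -0.33 for Cacnb4, -0.37 for Scn3a, -0.49 for Scn2a, -0.48 for Scn1a, -0.40 for Scn9a, -0.45 for Cacna2d1, -0.45 for Cacna1c, -0.51 for Cacna1a, -0.51 for Scn2b, -0.21 for Scn4b, -0.37 for Cacna2d2, -0.11 for Cacna2d3, -0.33 for Cacna1d, -0.46 for Nalcn, -0.40 for Cacna1i, -0.48 for Scn8a and -0.31 for Cacna1h. With no filter Scn2b was at -0.0094. With the length trend removed Scn9a was at -0.0041 and Nalcn at -0.017, and with the GC trend removed Scn1a was at -0.011, Scn9a at -0.070, Cacna2d1 at -0.030, Nalcn at -0.11 and Cacnb3 at 0.0012. With the cortical covariate Scn9a was at -0.022 and Scn7a at 0.00034. With the spiny covariate Scn9a was at -0.0045, Scn7a at 0.26, Cacna2d4 at 0.38, Cacna2d2 at -0.13 and Cacna1g at 0.24. Leaving out single libraries gave -0.0099 to 0.15 for Cacna1a, -0.24 to 0.037 for Cacna1g, -0.054 to 0.15 for Cacna2d2, -0.35 to 0.23 for Cacna2d4, -0.023 to 0.055 for Scn2b, -0.12 to 0.17 for Scn7a and -0.082 to 0.15 for Scn9a. None of these changes of direction was of a member that passed under the alternative, and the cause was not tested.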

Other observations

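NK9 was the lowest library for 11 of the 26 measured members and NK1 the highest for 8. The median deviation of the members from their mean over libraries was -0.22 on the log2 scale in NK9 and 0.23 in NK1, where the median over all features was 0.0036 and -0.010. These places are on TMM-scaled CPM and depend on that scaling. The TMM factor was 0.375 in NK1, the smallest, and 0.493 in NK9. Of the counts outside ribosomal RNA, the members took 7782 of 4659116 in NK1 and 4072 of 2345055 in NK9. The choroid plexus markers ran from 0.509 to 366 CPM per kb between libraries, with a median of 3.41 in those labelled TAAR5-KO and 138 in those labelled WT. The ranges overlapped, and the test on means, which NK4 at 366 weighs on, did not separate the labels (exact permutation p = 0.574). They were at 161 and 366 in NK9 and NK4, of lowest cortical marker level, and at 1.26 and 2.14 in NK12 and NK3, of highest. NK11, also of high cortical marker level, was at 114. A relation between these marker levels was not tested.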
